A study of Mus musculus with 6 samples.

Results

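The Wnt ligand genes, the Frizzled and LRP receptor genes and the genes for 8 core transducers of the pathway were examined in the open chromatin map of a mouse progenitor T cell line. The group held every protein-coding gene of the GENCODE vM1 annotation whose symbol is Wnt or Fzd followed by a number, together with Lrp5, Lrp6, Ctnnb1, Apc, Axin1, Axin2, Dvl1, Dvl2, Dvl3 and Gsk3b. These were 39 of 22380 protein-coding genes, 19 of them ligands, 12 receptors and 8 transducers. Chromatin accessibility was measured by ATAC-Seq, in which a transposase cuts and tags DNA that is not covered by nucleosomes, in Beko cells, a mouse leukaemia pre-T line in which Notch signalling is constitutively active. There were 6 libraries, 3 from cells given DMSO and 3 from cells given the γ-secretase inhibitor DAPT (GSI), which blocks the cleavage that releases active Notch, each for 24 h. The data used here were 1 merged list of 32527 peaks, positions on the mouse build mm9, that serves both treatments. It gives no value for a single library, so GSI and DMSO could not be compared, every statement describes both treatments together, and the spread between replicates is unknown. The cells are 1 line in culture, and a gene without a listed peak is only a gene at which no peak was reported.

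Wnt proteins are secreted, lipid-modified ligands that bind a Frizzled receptor, often together with the co-receptors LRP5 or LRP6. Dishevelled proteins carry the signal to a complex built on Axin and APC, in which the kinase GSK3β marks β-catenin for destruction, and when this complex is inhibited β-catenin enters the nucleus and acts through TCF/LEF factors. In the thymus, TCF-1 and LEF-1 are needed for early T cell development, and thymic stromal cells are a known source of Wnt ligands.

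The number of genes with a start peak differed by role. Of the 39 genes 15 had a peak no more than 1 kb from an annotated start (38.5%, 95% Wilson interval 24.9% to 54.1%), against 46.9% of all protein-coding genes. All 8 transducers had such a peak (100%, 67.6% to 100%). Among the receptors it was 4 of 12 (33.3%, 13.8% to 60.9%), namely Fzd5, Fzd7, Lrp5 and Lrp6, and among the Frizzled genes alone 2 of 10 (20%, 5.67% to 51.0%). Of the ligands 3 of 19 had one (15.8%, 5.52% to 37.6%), namely Wnt5b, Wnt9a and Wnt11. The intervals of the 39 genes, of the receptors and of the Frizzled genes alone include the 46.9% of all protein-coding genes. The intervals cover counting error over genes and not the error of the libraries, and genes are not replicates, so no test was made. At a distance of 5 kb the counts were 10 of 19 ligands (52.6%), 4 of 12 receptors and 8 of 8 transducers, against 53.8% of all protein-coding genes. Beside all protein-coding genes, the low count of the ligands thus holds for the immediate start and not at 5 kb.

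**Figure D1:**
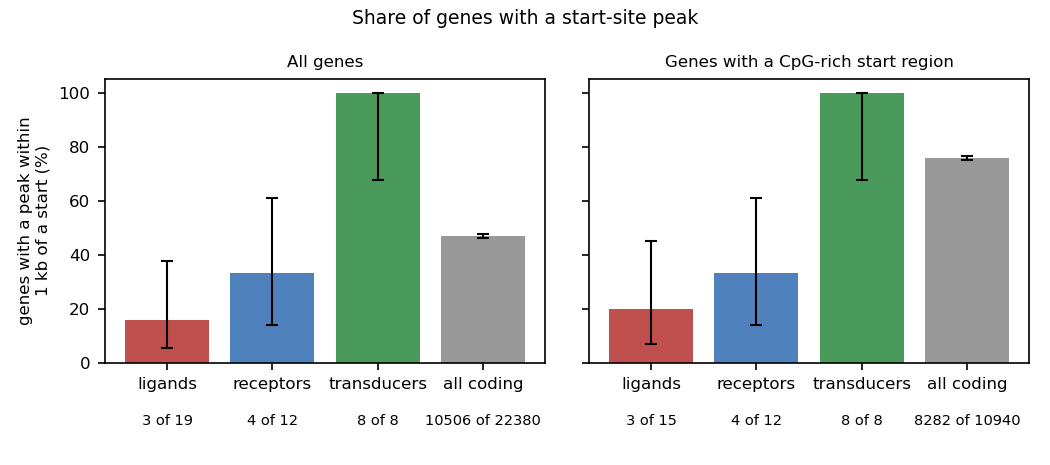
Percent of genes with an ATAC-Seq peak within 1 kb of an annotated start, by role and for all protein-coding genes, for all genes (left) and for genes with a CpG-rich start region (right). Bars give the share, lines the 95% Wilson interval and the numbers beneath the counts; ligands and receptors stand below the grey bar in both panels, and the transducers reach 100%.

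The start regions of most of these genes are rich in CpG dinucleotides, a kind of promoter that is accessible in many cell types. The region 500 bp to either side of a start was called CpG-rich when it held at least 0.6 times the CpG expected from its bases and 50% or more G and C. By this measure 15 ligands, 12 receptors and 8 transducers were CpG-rich, as were 10940 of all protein-coding genes. Such a peak is common in this class: of the CpG-rich protein-coding genes 75.7% had a peak within 1 kb of a start, against 19.4% of the other 11440. Within the CpG-rich class the peak was present at 3 of 15 ligands (20%, 7.05% to 45.2%), 4 of 12 receptors (33.3%, 13.8% to 60.9%) and 8 of 8 transducers (100%, 67.6% to 100%). The low counts of the ligands and receptors were thus also seen in this class, while the interval of the transducers includes the share of all CpG-rich genes. The 4 ligands with a CpG-poor start, Wnt8a, Wnt8b, Wnt10a and Wnt16, had no start peak. At 5 kb 52.6% of all 19 ligands, these 4 included, had a peak. Of all CpG-rich protein-coding genes only 21.4% had their nearest peak at 3.75 kb or farther. Beside these genes the ligands were low at 5 kb too. CpG-rich genes with no peak in the gene or within 20 kb of it made up 10.2% of all CpG-rich protein-coding genes, but 4 of 15 ligands (26.7%), 7 of 12 receptors (58.3%) and none of the transducers.

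The contrast can be read beside the DNA itself. The 120 bases before a start are shown in the direction of transcription from the mm9 build, with each CG in capitals, for the gene with the highest CpG ratio of its role among those with a start peak over the stretch and among those with no peak within 1 kb of any start, a choice made after the values were seen. Stretches that met an annotated exon were left out. Wnt7b, a ligand used in lung and kidney development, and Fzd3, a receptor of the planar polarity branch that guides axons, had no peak there. The Wnt7b stretch was chr15:85411160-85411279 on the minus strand, with 16 CG, and that of Fzd3 was chr14:65881301-65881420 on the minus strand, with 13 CG.
Wnt7b upstream: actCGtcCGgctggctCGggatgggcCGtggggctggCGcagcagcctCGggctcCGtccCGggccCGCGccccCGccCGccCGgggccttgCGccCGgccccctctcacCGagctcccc
Fzd3 upstream: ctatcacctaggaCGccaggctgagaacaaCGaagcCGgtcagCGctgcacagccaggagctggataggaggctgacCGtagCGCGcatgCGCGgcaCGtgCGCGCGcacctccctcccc
Wnt5b, Lrp6 and Ctnnb1 had a peak over the stretch. It was chr6:119494337-119494456 on the minus strand for Wnt5b, with 23 CG, chr6:134516984-134517103 on the minus strand for Lrp6, with 25 CG, and chr9:120842816-120842935 on the plus strand for Ctnnb1, with 23 CG.
Wnt5b upstream: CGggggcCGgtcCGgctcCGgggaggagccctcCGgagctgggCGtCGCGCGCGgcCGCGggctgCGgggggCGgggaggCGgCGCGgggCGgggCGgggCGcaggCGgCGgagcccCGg
Lrp6 upstream: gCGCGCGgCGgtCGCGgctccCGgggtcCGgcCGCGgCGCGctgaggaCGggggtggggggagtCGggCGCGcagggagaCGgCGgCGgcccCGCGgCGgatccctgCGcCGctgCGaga
Ctnnb1 upstream: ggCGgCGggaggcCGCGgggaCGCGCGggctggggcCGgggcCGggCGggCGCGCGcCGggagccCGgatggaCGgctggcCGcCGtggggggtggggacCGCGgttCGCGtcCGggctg
These stretches with a peak held more CG than those without, and the observed to expected ratio around the start shown was 0.89 for Wnt7b and 1.03 for Fzd3, against 1.0 for Wnt5b and 1.05 for both Lrp6 and Ctnnb1.

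Among the ligands, Wnt5b, which often signals without β-catenin, was the only one with a start inside a peak. That peak, chr6:119493592-119494914, was 1323 bp wide and ran from 578 bp before the outermost start to 744 bp after it. A second peak of 303 bp, chr6:119417744-119418046, lay 515 bp from an internal start of the same gene. Wnt5b also had the most peaks of any member, 10 in the gene and its 20 kb flanks, of which 9 met the gene itself. It is also the longest ligand gene at 111788 bp. Per 100 kb of window it had 6.59 peaks, fewer than Dvl2 with 13.5, Wnt8b with 13.2 and Wnt6 with 13.1. Dvl1, Wnt10a, Wnt11 and Wnt1 also had more per 100 kb. One of the 10 Wnt5b peaks, 1940 bp wide, sits at the start of Fbxl14, a gene nested in Wnt5b. A further 7, away from starts, were between 326 and 1155 bp wide. Wnt5b is therefore the ligand locus at which accessible DNA was both at the start and spread through the gene.

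Wnt9a, known for its part in joint formation, and Wnt11, which acts in heart and kidney morphogenesis, had narrow peaks near but not over a start. The Wnt9a peak of 471 bp, chr11:59121289-59121759, lay 857 bp into the gene. The Wnt11 peak of 353 bp, chr7:105986470-105986822, lay 533 bp from an internal start. Both are nearer in width to the median of all peaks away from starts, 465 bp, than to that of all peaks at starts, 855 bp. With the stricter rule that a start lies inside the peak, 1 ligand, 4 receptors and 8 transducers remained, against 44.0% of all protein-coding genes. Just outside the 1 kb limit were Wnt10b at 1155 bp, Wnt7b at 1162 bp, Wnt6 at 1163 bp and Wnt2b at 1508 bp. For Wnt10b this distance was to an internal start, and its outermost start lay 4813 bp from the nearest peak.

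**Figure D2:**
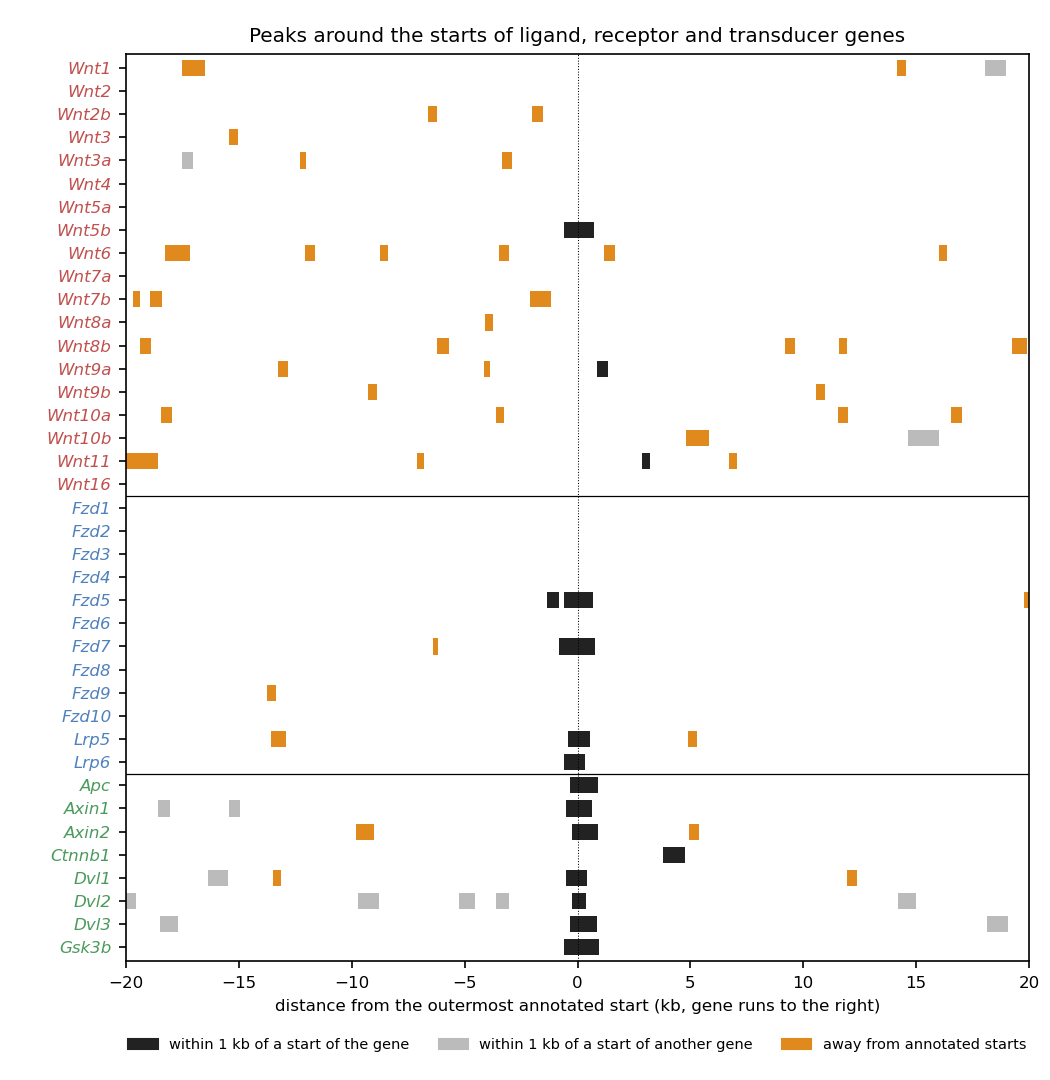
Peaks in the 20 kb to either side of the outermost annotated start of each gene, drawn to scale with the gene running to the right, ligands in red, receptors in blue and transducers in green. Black marks a peak within 1 kb of any start of the gene, grey one at a start of another gene and orange one elsewhere; all 8 transducers have a black mark and 7 Frizzled rows are empty. Ctnnb1 and Wnt11 have theirs at a start that is not the outermost one.

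Most ligand loci held peaks away from their starts. In the gene plus 20 kb, 14 of 19 ligands (73.7%), 5 of 12 receptors (41.7%) and 8 of 8 transducers had at least 1 peak, against 70.1% of all protein-coding genes. The ligands had 50 distinct peaks with a median of 2.00 a gene, which was also the median of all protein-coding genes. Per 100 kb of window the medians were 4.31 for the ligands, 0 for the receptors, 4.19 for the transducers and 2.31 for all protein-coding genes. The ligands were thus close to genes in general in the number of peaks a gene and above them in the number per 100 kb, with few of those peaks at a start.

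Wnt8b, best known from the developing forebrain, had 8 peaks in its window and none nearer than 5674 bp to its start. Of these 3 met Wnt8b itself, 2 lay upstream and 3 fell in the neighbouring gene Sec31b. Wnt6 had 7 peaks, of which 4 were intergenic and upstream, between 383 and 1079 bp wide, and 1 lay in its intron. Its neighbour Wnt10a, which acts in teeth and skin, had 5 peaks, and 3 of the peaks were in the windows of both genes. Wnt11 had 5, and Wnt3a, which can act on blood stem cells, Wnt7b and Wnt9a had 4 each. Wnt1 had 3, Wnt2b, Wnt9b and Wnt10b 2, and Wnt3 and Wnt8a 1. The pairs Wnt6 and Wnt10a, Wnt3a and Wnt9a, Wnt1 and Wnt10b, and Wnt3 and Wnt9b are neighbours, and 8 peaks were counted in the windows of both genes of a pair.

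Wnt2, Wnt4, Wnt5a, Wnt7a and Wnt16 had no peak in the gene plus 20 kb. Wnt5a, the model ligand of signalling without β-catenin, was the most remote, with 579 kb from a start to the nearest peak. Of all CpG-rich protein-coding genes 1.35% were as far or farther. For Wnt2, a lung mesenchyme ligand, the distance was 202 kb, and for Wnt4, which acts in kidney and reproductive tract development, 79.4 kb. Wnt16 was at 42.3 kb and Wnt7a at 29.3 kb. Wnt5a and Wnt5b, which encode closely related proteins, thus stood at the 2 ends of the ligand list.

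**Figure D3:**
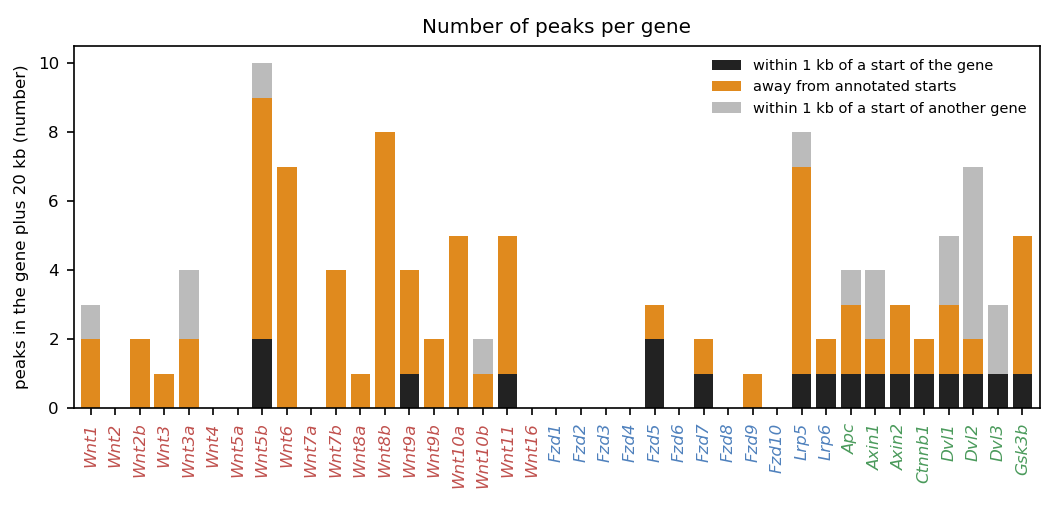
Number of peaks in each gene plus 20 kb, divided into peaks within 1 kb of a start of the gene (black), away from annotated starts (orange) and within 1 kb of a start of another gene (grey). Gene names are red for ligands, blue for receptors and green for transducers; Wnt5b is highest with 10, and 12 genes have none.

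Of the Frizzled genes, Fzd5 and Fzd7 had peaks over their starts. Fzd7, linked to stem cell maintenance, carried the widest start peak of all members, 1626 bp at chr1:59538156-59539781, with 835 bp before and 790 bp after the first start. Fzd5, which acts in gut and eye development, had a peak of 1256 bp at chr1:64783651-64784906 over the start and another of 518 bp at chr1:64785151-64785668, 827 bp away. Each had 1 further peak in its window. Both wide Frizzled start peaks exceeded the median widest start peak of all protein-coding genes that had one, 926 bp.

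The other 8 Frizzled genes had none at a start, although all are CpG-rich. Fzd9 had 1 peak in its window, 13.4 kb from the start. Fzd1, Fzd2, Fzd3, Fzd4, Fzd6, Fzd8 and Fzd10 had no peak in the gene plus 20 kb. The nearest peak was 186 kb away for Fzd8, 154 kb for Fzd1, 133 kb for Fzd10 and 106 kb for Fzd6, a planar polarity receptor that orients hair. It was 65.5 kb away for Fzd3, 65.1 kb for Fzd4, the norrin receptor of retinal vessels, and 25.4 kb for Fzd2. The start of Fzd4 lies within 1 kb of a start of Tmem135, and this shared region had no peak either.

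Among CpG-rich genes without a start peak the receptors were farther from any peak than the ligands. The median distance was 85.6 kb for the 8 Frizzled genes, 10.6 kb for the 12 ligands and 28.1 kb for the 2658 protein-coding genes of this kind. More than 20 kb was found for 7 of these 8 Frizzled genes (87.5%), 4 of the 12 ligands (33.3%) and 57.2% of the protein-coding genes. Most Frizzled genes are short, between 2293 and 7191 bp for 8 of the 10, so their windows are narrower than those of most other members. The distance is the smallest over all annotated starts of a gene, and neither gene length nor the number of starts was adjusted for.

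**Figure D4:**
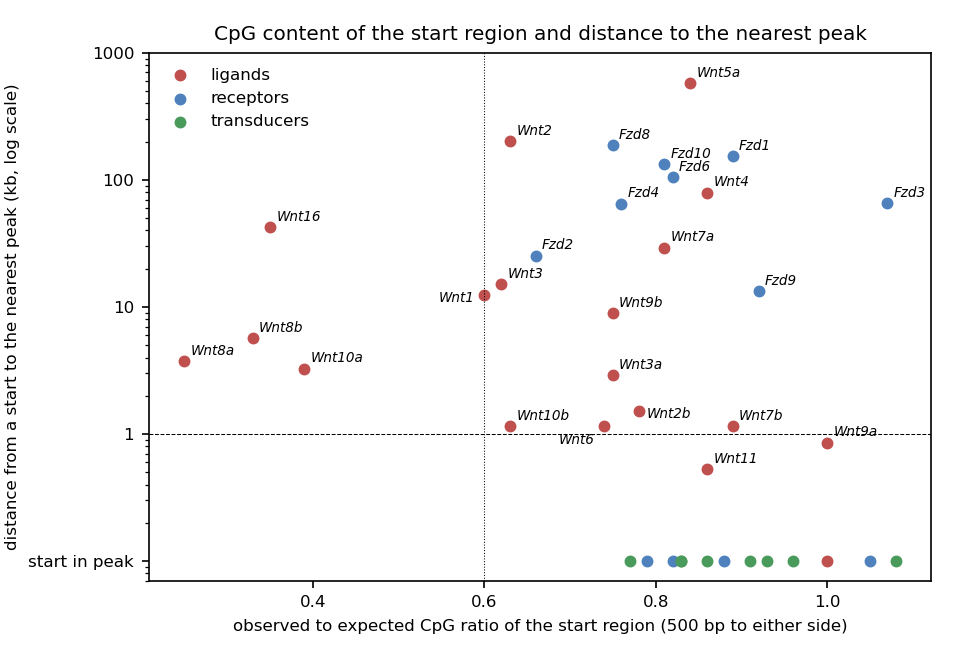
Distance in kb (log scale) from an annotated start to the nearest peak, plotted against the observed to expected CpG ratio of the start region, for each ligand, receptor and transducer gene. The dotted line marks the CpG ratio limit of 0.6 and the dashed line 1 kb; the bottom row holds genes with a start inside a peak, and Wnt5a stands highest at 579 kb.

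Both co-receptor genes had a peak over a start. Lrp5, also a regulator of bone mass, had a start peak of 952 bp at chr19:3686021-3686972, and Lrp6 one of 938 bp at chr6:134516639-134517576. Lrp5 had 8 peaks in its window, 5 of them in its introns and away from the start, at widths from 394 to 767 bp. Lrp6 had 1 intron peak of 409 bp. Both genes are long, 101740 and 120490 bp, and per 100 kb of window Lrp5 had 5.64 peaks and Lrp6 1.25.

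All 8 transducer genes had exactly 1 start peak, and each had at least 1 start inside it. The peaks of the destruction complex genes were similar in width. Axin1, the scaffold of the complex, had 1117 bp at chr17:26275143-26276259, and Axin2, a second scaffold that is itself a common target of β-catenin, 1139 bp at chr11:108781415-108782553. The tumour suppressor Apc had 1235 bp at chr18:34380250-34381484, and the kinase gene Gsk3b 1525 bp at chr16:38088496-38090020. Ctnnb1, which encodes β-catenin, had 939 bp at chr9:120842142-120843080, covering 5 of its 13 annotated starts but not the outermost one.

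The Dishevelled genes varied more. Dvl3 had a start peak of 1174 bp at chr16:20516732-20517905, Dvl1 one of 915 bp at chr4:155221010-155221924, and Dvl2 the narrowest of the transducers, 651 bp at chr11:69813836-69814486. The median widest start peak was 1128 bp for the 8 transducers, 1104 bp for the 4 receptors with one and 471 bp for the 3 ligands. All 3 medians rest on few genes, and in the ligands the values ran from 353 to 1323 bp. The start peaks of Apc and Dvl3 were also within 1 kb of starts of Gm10548 and Gm16618, so they cannot be assigned to 1 gene.

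Most peaks in the windows of the transducers were at the start of some gene. Their windows held 33 distinct peaks, of which 8 were at their own starts, 12 at starts of other genes and 13 away from starts. Dvl2 had the most with 7, and 5 of these were at starts of its neighbours Ctdnep1 and Rai12, Gabarap, Phf23 and Acadvl. Gsk3b was the opposite, with 5 peaks of which 4 were in its introns, 324 to 401 bp wide. Apc had 2 intron peaks of 445 and 447 bp, and Axin2 had 1 of 416 bp in an intron and 1 of 787 bp upstream. For the ligands the division was 4 at their own starts, 4 at starts of other genes and 42 away from starts, and for the receptors 5, 1 and 10. In the whole list 11522 of 32527 peaks were within 1 kb of a start. The share at starts was near this for the receptors, higher for the transducers and lower for the ligands.

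Of the 99 distinct peaks around all members, 65 were away from annotated starts, with a median width of 445 bp (257 to 1598 bp). In the whole list 21005 of 32527 peaks were away from starts, with a median width of 465 bp, so the division was similar. By the position of the centre, 31 were in introns, 8 in exons and 26 between genes, and 30 met the member whose start was nearest. Of the 26 between genes, 21 were nearest to a ligand. A peak in a window is near the gene and was not tied to it by any measurement.

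Short motifs were searched on both strands of each peak. They were ATCAAAG, the core bound by TCF/LEF factors, TGGGAA, bound by RBPJ, the DNA-binding factor of the Notch pathway, GGGCGG, bound by SP factors, and CAGCTG, an E-box. None of these strings contains another, a match is not a measured binding site, and a missing match says only that these letters are not in the peak. In the 17 start peaks of members TCF/LEF was found in 2 (11.8%), against 6.87% of all peaks at starts. RBPJ was found in 7 (41.2%, against 48.4%), SP in 15 (88.2%, against 76.6%) and the E-box in 6 (35.3%, against 40.5%). In the 65 peaks away from starts TCF/LEF was found in 7 (10.8%, against 9.49% of all such peaks), RBPJ in 22 (33.8%, against 39.2%), SP in 12 (18.5%, against 17.9%) and the E-box in 28 (43.1%, against 43.9%). These shares were close to those of all peaks of the same kind.

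Over whole peaks the motif counts differed somewhat by role. RBPJ was found in 18 of 42 ligand peaks away from starts (42.9%), in 3 of 10 receptor peaks (30%) and in 1 of 13 transducer peaks (7.69%). Of all such peaks 39.2% held it. In the central 200 bp RBPJ was found in 6 of 42 ligand, 2 of 10 receptor and 1 of 13 transducer peaks. The share of all such peaks there was 16.4%, and the ligands, at 14.3%, were not above it. Over the whole peaks TCF/LEF was found in 6 of 42, 0 of 10 and 1 of 13, against 9.49% of all such peaks. The numbers of receptor and transducer peaks are small, and the difference between roles was not tested.

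The TCF/LEF matches at starts were in Axin2 and Lrp6. The Axin2 start peak was the only member peak with 2 matches, at chr11:108781730-108781758 in an annotated exon and at chr11:108782535-108782563, a window that ends 10 bp past the peak. The Lrp6 match was at chr6:134517356-134517384, before the start. They are printed from the plus strand of mm9 with the match in capitals, where CTTTGAT is ATCAAAG on the other strand, and were chosen after the values were seen.
Axin2 first match: agccggctgcgCTTTGATaaggtcctggc
Axin2 second match: cggccggcgcgCTTTGATgtgcggggcgg
Lrp6 start peak: gacgtaggaaaATCAAAGtgccattgcgg

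For the peaks away from starts, windows around the matches were taken from the peaks with the most TCF/LEF and RBPJ matches of each role among those that met no annotated exon. The Wnt8b intron peak chr19:44579541-44579917 held 2 RBPJ matches, shown in chr19:44579566-44579631 and chr19:44579733-44579798. Wnt2b, at chr3:104766456-104766522 upstream of the gene, and Wnt11, at chr7:105990455-105990521 in an intron, each held 1 match, to TCF/LEF. Other ligand peaks that met no annotated exon also held 1 match, to RBPJ, and are not shown. The receptor windows each held an RBPJ match, at chr1:64764316-64764381 near Fzd5, in an intron of Ccnyl1, at chr19:3655424-3655489 in an intron of Lrp5 and at chr6:134483108-134483173 in an intron of Lrp6. The transducer window, chr9:120870862-120870928, lay beyond the end of Ctnnb1 in an intron of Ulk4 and held a TCF/LEF match. All are from the plus strand of mm9, with the match in capitals, and TTCCCA is TGGGAA on the other strand.
Wnt8b first window: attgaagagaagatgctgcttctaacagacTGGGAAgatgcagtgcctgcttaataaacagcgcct
Wnt8b second window: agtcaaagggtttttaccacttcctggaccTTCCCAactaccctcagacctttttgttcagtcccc
Wnt2b: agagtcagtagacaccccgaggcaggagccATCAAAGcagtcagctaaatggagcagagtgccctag
Wnt11: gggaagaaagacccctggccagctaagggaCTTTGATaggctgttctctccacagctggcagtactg
Fzd5: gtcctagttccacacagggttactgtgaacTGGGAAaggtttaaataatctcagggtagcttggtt
Lrp5: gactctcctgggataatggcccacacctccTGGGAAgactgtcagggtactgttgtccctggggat
Lrp6: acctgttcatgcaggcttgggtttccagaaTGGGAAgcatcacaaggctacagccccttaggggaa
Ctnnb1: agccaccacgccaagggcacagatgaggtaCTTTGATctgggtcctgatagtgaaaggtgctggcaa

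The rest of the pathway was counted by role in 62 further genes. A start peak was found in 32 of them (51.6%, against 46.9% of all protein-coding genes), and 15 had no peak in the gene plus 20 kb (24.2%, against 29.9%). Of the 47 that are CpG-rich 29 had a start peak (61.7%, against 75.7%). Secreted inhibitors had the lowest share of the 6 roles, with a start peak in 1 of 11, Wif1. Only 5 of the 11 are CpG-rich, and 1 of these had a start peak. There was no peak in the window of 6 secreted inhibitors, Dkk2, Dkk3 and Sfrp1 among them. Of the R-spondins, their receptors and the ligases they act on 3 of 9 had a start peak, and of the CpG-rich ones 2 of 6. The ligases Rnf43 and Znrf3, which remove Frizzled from the cell surface, had 8 and 7 peaks in their windows, while 3 of the 9, Rspo2 and Rspo3 among them, had none.

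A start peak was found in 9 of 12 other cytoplasmic components and in 9 of 14 nuclear partners (64.3%). Of the CpG-rich genes among them 8 of 10 and 9 of 12 had one, near the share of all CpG-rich genes. Btrc, which binds marked β-catenin for destruction, had 12 peaks in its window. Gsk3a, the second GSK3 gene, had 7 in its window and none within 1 kb of a start, the nearest being 1321 bp away. Tcf7, the gene for TCF-1, had 3 start peaks and 10 peaks in its window, and Lef1 1 and 8. Tle1, a co-repressor gene, was the only nuclear partner with none in its window.

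Among other receptors and planar polarity genes 8 of 13 had a start peak (61.5%), and of the CpG-rich ones 7 of 12. Celsr1 had 15 peaks in its window and Ror2, a receptor for Wnt5a, 13, none of the latter within 1 kb of a start. There was no peak in the window of 4, Ror1 and Ryk among them. Of the genes for ligand secretion and processing, Porcn, which attaches the lipid, and Notum, which removes it, had a start peak, with 3 and 5 peaks in their windows, and Wls, the carrier of Wnt proteins to the surface, had none within 343924 bp of a start.

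The labelled cell type was checked against marker genes. A start peak was found at 11 of 13 progenitor T cell genes, the exceptions being Cd3d, with a peak 1119 bp away, and Il2ra, with one 5128 bp away. Ptcra is annotated as an immunoglobulin-type constant gene, not as protein-coding, and was not counted. A start peak was found at 0 of 5 B cell genes, 1 of 5 myeloid genes (Spi1), 2 of 3 erythroid genes (Gata1 and Klf1) and 2 of 5 epithelial and stromal genes (Col1a1 and Pdgfrb). Among all protein-coding genes the share was 46.9%, with 75.7% of the CpG-rich ones and 19.4% of the others. CpG-rich were 5 of the 13 progenitor T cell genes and 1 each of the B cell, myeloid, and epithelial and stromal genes. No erythroid gene was CpG-rich. With so few CpG-rich markers, a low count does not show that a cell type was absent. Whether cells of another type had a part in any of the peaks described here was not tested.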

How the data were processed

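ATAC-Seq of Beko cells was done in 6 libraries in 2 groups, 3 DMSO and 3 GSI. By the study's methods, the authors called peaks in each library, combined replicates and kept peaks found in at least 3 libraries. The submitters' processing notes name HISAT2 2.2.1, Picard, deepTools, MACS2 and the build mm9. The authors deposited 1 list of peak positions, whose unit is the bp, and the score column is 0 throughout. The depth of the libraries was not used, since the list holds no value per library that it could bear on. Peaks open in 1 treatment only may therefore be in the list unmarked.

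The reference was NCBIM37, the same build as mm9, with GENCODE vM1. A start was the first base of any annotated transcript, distances were measured from the edge of a peak, and positions are counted from 1. No sequence was taken from chromosome 18. Where a gene has several starts, it was CpG-rich if any of them was. The naming rule was that all members are named, other pathway genes only as up to 4 examples a role, those with the most peaks and those with none in the window. Members and lists were chosen with earlier results of these data known. Counts were compared with all protein-coding genes or all peaks, without a test. Python 3.11.15, numpy 2.4.6, scipy 1.17.1, pysam 0.24.0 and matplotlib 3.10.9 were used, and the counting was tested on simulated intervals. Alternatives covered the distance, the flank, the peak width, the starts used, the CpG limits and the motif letters.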

Additional observations from a re-analysis of the deposited data

How the results depend on the processing

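Of 66 alternative values for 16 results, 46 stayed within 1.5 times the reported value. The number of ligands with a peak near a start, 3 within 1 kb, was 1 within 500 bp, 7 within 2 kb, 10 within 5 kb, 1 with the start inside the peak and 1 with peaks of at least 500 bp, while all protein-coding genes went only from 45.7% within 500 bp to 53.8% within 5 kb. With the start inside the peak the median width for ligands was 1323 bp, that of Wnt5b alone. The counts of receptors and transducers with a start peak, with or without the CpG limits, stayed within 1.5 times under every alternative run. With gene bodies alone, the distinct peaks were 21 for ligands, 10 for receptors and 16 for transducers, and with peaks of at least 500 bp 20 for ligands and 9 for receptors. With 5 kb flanks ligands had 31, with 50 kb flanks receptors had 28, and without peaks at starts of other genes transducers had 19. In the central 200 bp, member peaks with a motif fell to 4 for TCF/LEF, 11 for RBPJ, 12 for SP and 18 for the E-box, while a 6-letter TCF/LEF core gave 27 and a degenerate RBPJ form 52. Away from starts the central shares were 6.15%, 13.8%, 4.62% and 27.7%, against 4.34%, 16.4%, 9.28% and 25.7% of all such peaks. At starts they were 0%, 11.8%, 52.9% and 0%, against 1.46%, 13.3%, 49.2% and 13.2%. The 6-letter core and the degenerate form gave 30.8% and 61.5% away from starts, against 34.4% and 61.0%. At starts they gave 41.2% and 70.6%, against 31.0% and 65.3%. The alternatives changed the window, the width limit, the peaks kept or the motif letters, and the reason for each shift was not tested. CpG limits of 0.75 and 55% gave a start peak at 3 of 9 ligands, 4 of 11 receptors, 8 of 8 transducers and 78.7% of coding genes. Calling the CpG class by the outermost start only, with a peak at any start, gave 3 of 14, 4 of 12, 7 of 7 and 76.2%. This alternative was chosen after seeing the data. When the peak had to be at the outermost start, without the CpG limit, 2 ligands, 4 receptors and 7 transducers had one. Of all protein-coding genes 43.9% had one by that rule. No paired analysis was possible because 1 list was made from all libraries together, so no replicate could be left out either. The list gives no reads, so a weak peak cannot be told from a strong one, nor a missed peak from DNA that was not accessible.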

Other observations

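Members with several annotated starts differed in how many of them lay inside a peak. Dvl3 had all 4 of its starts inside its peak, Dvl1 6 of 8, Axin1 and Dvl2 4 of 6, and Apc 4 of 8. Axin2 had 2 of 7, and Gsk3b 1 of 4. Lrp6 had 2 of 3 and Fzd7 2 of 2. None of the 6 starts of Wnt5a, and none of the 3 of Wnt7a, Wnt10b, Wnt16 or Fzd3, was within 1 kb of a peak.

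The start peaks also differed in how they lay around the first start they cover. Axin2 had 248 bp before it and 890 bp after, Apc 328 and 906 bp, and Dvl3 323 and 850 bp, so these ran further into the gene. The peaks over starts of Wnt5b, Fzd5, Lrp5, Axin1, Ctnnb1, Dvl2 and Gsk3b also did. Where a peak holds several starts, the others fall on the side after the first, which lengthens that side. Lrp6 had 593 bp before and 344 bp after, and Dvl1 501 and 413 bp, so these ran further upstream. Fzd7, with 835 and 790 bp, was nearly even.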
